A study of Mus musculus with 2 samples.

Results

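Translation initiation and elongation factors are the proteins that place a ribosome on a messenger RNA and carry it along the coding sequence. They were taken here as the protein-coding genes, present in the gene tables of both libraries, whose mouse symbol begins with Eif1 to Eif6 or with Eef1 or Eef2. The kinases of the eIF2 alpha subunit, whose symbols begin with Eif2ak, were left out. The rule found 63 genes among the 21474 protein-coding genes of the tables, 51 with Eif symbols and 12 with Eef symbols. They are called initiation and elongation factor genes below, although the names also take in inhibitors and enzymes that act on the factors. A further matching symbol, for 64 in the annotation, has no row in the files. The rule itself uses names and no measured value.

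The study measured total RNA above 200 nucleotides from adult liver of the C57BL/6J strain, at an age of 8 weeks. It holds 2 libraries, labelled biological replicates 1 and 2, and they form 1 group with no treatment and no second genotype. Endogenous genes received 83816492 expected counts in replicate 1 and 71068181 in replicate 2. The labels give both libraries the same donor identifier and do not give the sex, so the spread between them may be technical, and no test between conditions can be made. SDs are over n = 2.

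In eukaryotic cells, eIF2 brings the initiator transfer RNA to the small ribosomal subunit, where eIF1, eIF1A, eIF3 and eIF5 also bind. The cap-binding protein eIF4E, the scaffold eIF4G and the helicase eIF4A form eIF4F, which recruits the messenger RNA. During elongation, eEF1A delivers aminoacyl transfer RNAs, the eEF1B complex reloads eEF1A with GTP, and eEF2 moves the ribosome forward by a codon. Hepatocytes export large amounts of plasma protein, and a pair of signals adjusts their translation: phosphorylation of eIF2, which limits the initiator complex, and the kinase mTORC1, which frees eIF4E from the 4E-binding proteins.

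Levels below are TPM values, which are corrected for transcript length, rescaled so that protein-coding genes sum to 1000000 in each library. This takes out 7SL, the RNA of the particle that brings secreted proteins to the membrane, which held 70.3% of deposited TPM in replicate 1 and 65.5% in replicate 2. A deposited TPM is written to 2 decimals, so levels under 1 are coarse. All 6 hepatocyte markers had high counts in both libraries, with summed levels of 76369 and 92027. Markers of other tissues and cells differed between the libraries. The 6 skeletal muscle markers had 2367 counts in replicate 1 and 15 in replicate 2, and 3 of them were at 0 in replicate 2. The 6 pancreatic acinar markers had 44318 and 6183 counts, and the 5 adrenal cortex markers had 95 and 5947. The 4 B cell or plasma cell markers had 128 and 915. Their part in the results below was not tested. In such bulk samples, fewer cells of a type and less RNA per cell cannot be told apart.

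Nearly all translation factors were present in liver. A level of 1 or more in both libraries was found for 57 of the 63 genes, or 90.5%, against 51.0% of all protein-coding genes. A level of 100 or more was found for 13 genes, or 20.6%, against 5.02%. Together the 63 genes held 1.15% of protein-coding TPM in replicate 1 and 1.26% in replicate 2, a mean of 1.21% ± 0.0776. Undivided by length, they held 1.10% and 1.17% of protein-coding counts. Elongation factor genes took 72.05% and 71.75% of this sum, and initiation factor genes 28.0% and 28.2%. Across the 60 genes above 0 in both libraries the levels correlated with Spearman's rho of 0.985 between libraries, a description across genes that share each library.

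**Figure D1:**
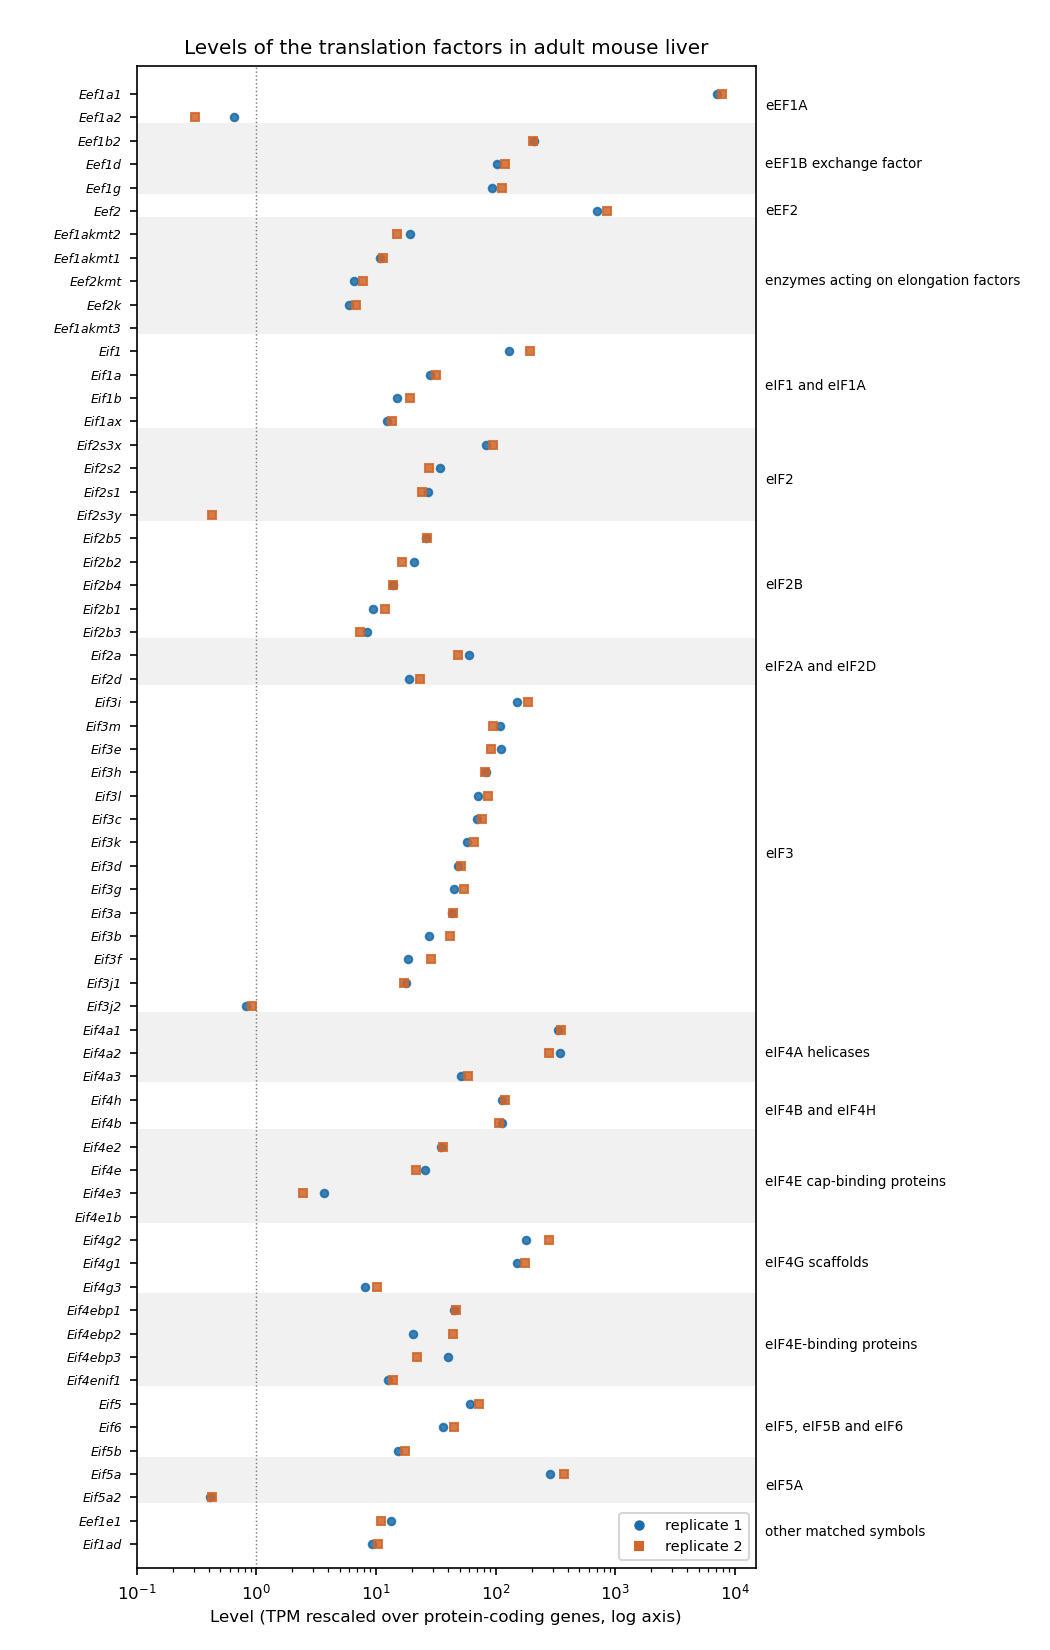
Level of each of the 63 genes, ordered by factor group, in replicate 1 (circles) and replicate 2 (squares), on a log axis of TPM rescaled over protein-coding genes, with a dotted line at 1. Values of 0 are not drawn. Eef1a1 lies near 10 times the level of Eef2, and 6 genes lie below 1 in at least 1 library.

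The 6 genes not at 1 in both libraries were 5 low members of paralog families and 1 enzyme. Eif4e1b, an oocyte form of the cap-binding protein, had 0 counts in both libraries, where 3 counts, the limit that a count of 0 allows, correspond to 0.0358 CPM (counts per 1000000) in replicate 1 and 0.0422 CPM in replicate 2. Eif2s3y, the Y-linked copy of the eIF2 gamma subunit gene, had 0 counts in replicate 1 and 7 in replicate 2. Eef1akmt3, a lysine methyltransferase of eEF1A, had 1 count and 2 counts. The other three were Eif3j2, Eef1a2 and Eif5a2, with levels between 0.307 and 0.921.

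Eef1a1, which encodes the ubiquitous form of eEF1A, was by far the most abundant factor. It lies at chr9:78478449-78489151 on the minus strand of mm10. Its level was 7148 in replicate 1 and 7731 in replicate 2, which placed it at rank 11 among protein-coding genes of the nuclear genome. Eef1a1 and Eef1a2 together held 61.9% and 61.2% of the summed level of all 63 genes. Its counts were 317436 and 310373, and the log2 ratio of replicate 2 over replicate 1 was 0.06 after scaling.

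Eef1a2, the form known from skeletal muscle, heart and neurons, was nearly absent. It lies at chr2:181147653-181157014, also on the minus strand. It had 50 counts in replicate 1 and 19 in replicate 2, and its level was 0.659 and 0.307. Eef1a1 had 6349 counts for each Eef1a2 count in replicate 1 and 16335 in replicate 2. Eef1a2 counts were 2.47-fold higher in replicate 1, with a 95% exact interval of 1.43 to 4.44 that covers counting error only. The skeletal muscle markers were also higher in replicate 1, at 2367 against 15 counts, as were the neuron markers Syt1, at 897 and 632 counts, and Rbfox3, at 24 and 14. The other neuron markers were higher in replicate 2, with 4 and 28 counts for Snap25, 0 and 15 for Tubb3 and 0 and 1 for Stmn2. The part of these cells in the Eef1a2 counts was not tested.

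The coding sequences of this pair differ enough to separate reads. Eef1a1-201 encodes 462 residues and Eef1a2-201 encodes 463, and the proteins are 92.2% identical while the coding sequences are 80.3% identical. The longest run shared by the full transcripts is 23 bases. The first 60 coding bases are shown because they show where the pair differs, with differing bases in capitals.
Eef1a1: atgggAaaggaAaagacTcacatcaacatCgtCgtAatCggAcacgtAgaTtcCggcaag
Eef1a2: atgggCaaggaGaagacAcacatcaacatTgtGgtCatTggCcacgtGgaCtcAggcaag
The stretch holds 11 differences, all 11 at the last base of a codon, and 0 of its 20 codons differ in the encoded residue. The deposited posterior SD of the Eef1a2 count, a measure of how uncertain shared reads leave it, was 0% in both libraries.

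Eef2, which encodes the translocase, was the next most abundant factor. It lies at chr10:81176631-81182498 on the plus strand. Its level was 710 in replicate 1 and 851 in replicate 2, at rank 163 of nuclear protein-coding genes. Eef1a1 stood 10.1 times above Eef2 in replicate 1 and 9.09 times in replicate 2. Eef1a1 and Eef2 together made up 68.1% and 67.9% of the summed level of all 63 genes.

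The 3 genes of the eEF1B exchange factor lay well below the GTPase that it serves. Eef1b2, which encodes the catalytic alpha subunit of the exchange factor, had a level of 208 in replicate 1 and 204 in replicate 2. Eef1g, the structural gamma subunit and the lowest of the trio, had 93.0 and 113. Eef1a1 was 53.1 and 53.0 times the mean level of Eef1b2, Eef1d and Eef1g. This gap is between RNA levels, and protein was not measured.

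Enzymes that modify elongation factors were low. Eef1akmt2, a methyltransferase of eEF1A and the highest of the 5, had levels of 19.4 and 15.1. Eef2k, the kinase that inhibits eEF2, had 6.01 and 6.82, far below the 710 and 851 of its substrate. Of these 5 genes, 4 passed 1 in both libraries, and Eef1akmt3 did not.

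Many messenger RNAs of the translation machinery begin with a C and a run of pyrimidines, a feature through which mTORC1 and the RNA-binding protein Larp1 control their translation. The RefSeq promoter table, on GRCm38.p6, held 300-base windows for 47 of the 63 genes. The search took a C within 5 bases of the annotated start, on the sense strand, that is followed by 5 or more pyrimidines. It matched 8 of 47 genes, or 17.0%, against 11.9% of the 16317 protein-coding genes with a window, 13.01% of the 9011 that passed the expression filter and 41.8% of the 67 cytosolic ribosomal protein genes. The windows below run from 10 bases before the start, are 30 bases long, and carry the matching tract in capitals. They show 4 genes with the tract and 3 abundant or variable genes without it.
Eef1a1, chr9:78481705-78481734, minus strand: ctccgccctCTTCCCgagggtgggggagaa
Eif3f, chr7:108934405-108934434, plus strand: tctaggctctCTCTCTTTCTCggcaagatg
Eif2s3x, chrX:94212632-94212661, minus strand: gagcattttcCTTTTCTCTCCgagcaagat
Eif4g1, chr16:20672717-20672746, plus strand: gcgcagctccgCCCTCTgcgccggtcacgt
Eef2, chr10:81176621-81176650, plus strand: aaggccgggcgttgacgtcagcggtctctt
Eif4a1, chr11:69672404-69672433, minus strand: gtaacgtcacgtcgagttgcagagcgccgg
Eif4ebp2, chr10:61452650-61452679, minus strand: cgcagcgggacgaccgggcgagagcaggcg
In Eef1a1 the tract begins 1 base before the annotated start and is 6 bases long. In Eif3f and Eif2s3x it begins at the start and is 11 bases long. The match depends on the annotated start, and the starts used in liver were not measured. A gene without the match may hold a tract at another start. A match, that of Eef1a1 included, may lie outside the messenger RNA.

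The 7 genes with the tract that passed the expression filter had a median level of 78.9, from 18.6 to 7440. The 37 without it had a median of 34.6, from 6.41 to 780. The ranges overlap from 18.6 to 780, and the comparison was not tested. Between libraries the genes with the tract had a median log2 ratio of 0.06 and the genes without it a median of -0.02.

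Other promoter motifs were searched in the whole windows, on both strands except for TATAAA. The E-box CACGTG was found in 12 of the 47 genes, or 25.5%, against 9.24% of all windows and 11.7% of genes that passed the filter. The ETS motif CCGGAAG was found in 16, or 34.0%, against 13.5% and 20.6%. TATAAA was found in 4 genes and the C/EBP-ATF core TGATGNAA in 2, shares of 8.51% and 4.26%. These compare with 9.33% and 3.95% of all windows and with 5.76% and 2.76% of genes that passed the filter. A gene with several annotated starts was counted once if any window matched, and a match is a string of letters, not a measured binding site.

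Among the genes of eIF1 and eIF1A, Eif1, whose product guards the choice of start codon, was the highest. Its level was 131 in replicate 1 and 193 in replicate 2. Its paralog Eif1b had 14.9 and 19.4, so Eif1 held 89.8% and 90.8% of the pair. Of the genes for eIF1A, which keeps the scanning complex open, Eif1a on chromosome 18 had levels of 28.2 and 31.6 and the X-linked Eif1ax had 12.4 and 13.6. Eif1a therefore held 69.5% and 69.8% of the pair per length, but a mean of 55.7% of its counts, since the Eif1ax transcript is longer. Their proteins are 98.6% identical.

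The genes of eIF2, the carrier of the initiator transfer RNA, differed in level by subunit. Eif2s3x, the X-linked gene of the gamma subunit, had levels of 83.3 and 94.8 in the replicates. Eif2s1, the alpha subunit that stress kinases phosphorylate, had 27.2 and 24.4, and Eif2s2, the beta subunit, had 34.7 and 27.9. The highest subunit was 3.07 times the lowest in replicate 1 and 3.88 times in replicate 2. Eif2s3x had 10983 and 10586 counts, against 0 and 7 for Eif2s3y.

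The X and Y copies of the gamma subunit gene show a coding pattern like that of the eEF1A pair. Their proteins have 472 residues each and are 97.9% identical, and their coding sequences are 86.3% identical. The first 60 coding bases, with differing bases in capitals, show where the coding sequences differ. Whether the few Y-linked counts came from coding bases was not tested.
Eif2s3x: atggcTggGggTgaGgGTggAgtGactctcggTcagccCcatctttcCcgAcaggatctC
Eif2s3y: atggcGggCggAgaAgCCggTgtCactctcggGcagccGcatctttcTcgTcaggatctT
They hold 13 differences, 12 of them at the last base of a codon, and 1 of 20 residues differs.

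The 5 subunits of eIF2B, the exchange factor that reloads eIF2 with GTP, were lower on average than those of eIF2, although Eif2b5 exceeded Eif2s1 in replicate 2. Eif2b5, the catalytic epsilon subunit, was the highest at 26.3 and 26.9. Eif2b3, the gamma subunit, was the lowest at 8.48 and 7.31. The mean eIF2 subunit stood 3.07 and 3.21 times above the mean eIF2B subunit. Of the alternative factors that can deliver initiator transfer RNA without eIF2, Eif2a had levels of 59.7 and 48.6 and Eif2d had 18.8 and 23.5, although little of the Eif2a signal lay in coding transcripts, as described below.

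The eIF3 complex, which bridges the small subunit and eIF4F, was the largest initiation group by summed level. Its 14 genes summed to 857 in replicate 1 and 924 in replicate 2, or 7.42% and 7.31% of all 63 genes. The 12 core subunits spanned 8.25-fold in replicate 1 and 6.46-fold in replicate 2. Eif3i was the highest in both libraries, at 152 and 188, and Eif3f the lowest, at 18.4 and 29.1. Neighbours in the order by mean kept the same order in both libraries in all but 3 steps. Those were Eif3m over Eif3e, Eif3h over Eif3l and Eif3d over Eif3g, which were picked out after their values were seen.

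The core was divided here into an octamer of subunits with PCI and MPN domains and the remaining b, d, g and i subunits. The 8 octamer genes had a median level of 76.3 and the 4 remaining genes 49.7. Spread was wide in both sets. It was 6.03-fold and 3.30-fold in the octamer and 5.50-fold and 4.52-fold in the remaining genes, in replicates 1 and 2. Equal levels across the complex were thus not seen in either library.

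**Figure D2:**
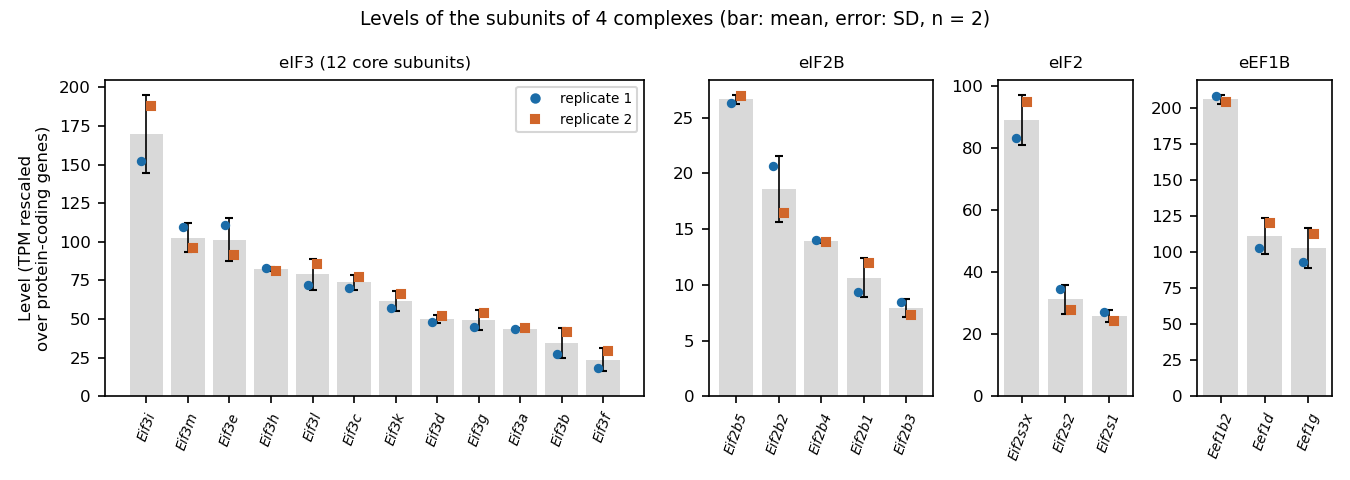
Level of each subunit of eIF3 (12 core subunits), eIF2B, eIF2 and eEF1B, as TPM rescaled over protein-coding genes, with bars for the mean, error bars for the SD (n = 2) and points for each library. Each panel has its own axis from 0, and Eif3i, Eif2s3x and Eef1b2 stand above the other subunits of their complexes.

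The loosely bound eIF3j subunit is encoded by Eif3j1 and by a near-identical copy on chromosome 18, Eif3j2. Eif3j1 had levels of 17.9 and 17.2, and Eif3j2 had 0.823 and 0.921. Their coding sequences are 99.2% identical and share a run of 1107 bases. The 66.6 and 66.0 counts of Eif3j2 had a posterior SD of 23.9% and 35.9%, so they are uncertain. For the other translation factor genes with 1 or more counts the posterior SD was under 1% of the count.

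The eIF4A helicases were the most abundant part of eIF4F. Eif4a1 had levels of 331 in replicate 1 and 355 in replicate 2, and Eif4a2 had 344 and 281. Eif4a2 was thus the higher of the pair in replicate 1 and the lower in replicate 2, with shares of 51.0% and 44.2%. Their proteins are 90.2% identical and share no run of more than 20 bases, and the pseudogene Eif4a-ps4 took 658 and 630 counts, with a posterior SD of 27.8 and 32.3 counts, beside the 19548 and 17966 of Eif4a1. Eif4a3, a helicase of the exon junction complex rather than of initiation, was the lowest at 51.2 and 59.0. Of the cofactors that stimulate the helicase, Eif4h had 112 and 119 and Eif4b 112 and 107.

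The cap-binding proteins were far lower. Eif4e had levels of 25.8 in replicate 1 and 21.8 in replicate 2, and eIF4A1 plus eIF4A2 transcripts were 26.2 and 29.2 times as abundant. Eif4e2, a homolog that binds caps but represses translation, was above Eif4e in both libraries at 35.2 and 36.2. Eif4e3 had 3.70 and 2.46. By counts, which are not divided by length, Eif4e held a mean of 51.2% of the family against 43.0% for Eif4e2, so the order of the pair depends on the length correction.

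The scaffold family was dominated by Eif4g1 and Eif4g2. Eif4g1 had levels of 150 and 176. Eif4g2, which lacks the eIF4E-binding region, had 179 and 282 and held 53.1% and 60.2% of the family. Eif4g3 had 8.15 and 10.2. By counts the order was the other way, with a mean of 51.7% for Eif4g1 and 45.3% for Eif4g2. The annotated coding sequence of Eif4g2-213 begins with GTG in place of ATG, which is the known start of this gene.

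The eIF4E-binding proteins, which block eIF4E until mTORC1 phosphorylates them, exceeded Eif4e. The summed level of Eif4ebp1, Eif4ebp2 and Eif4ebp3 was 105 in replicate 1 and 113 in replicate 2, or 4.09 and 5.20 times that of Eif4e. Eif4ebp1 had 44.6 and 47.0. Eif4ebp2 had 20.5 and 44.4, and Eif4ebp3 had 40.3 and 21.9, so the order of these 2 genes was opposite in the libraries. Their sum was 60.8 and 66.3. By counts, which are not divided by length, Eif4e had 2645 in replicate 1 and 1921 in replicate 2. Eif4ebp1 had 1320 and 1205 counts, Eif4ebp2 1086 and 1963, and Eif4ebp3 825 and 391. The size of the excess over Eif4e thus depends on the length correction. Eif4enif1, which carries eIF4E into the nucleus and to P-bodies, had levels of 12.7 and 13.9.

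A search of the annotated coding sequences for the eIF4E-binding motif, a tyrosine, 4 residues, a leucine and a further hydrophobic residue, matched 14 of 62 proteins. They include Eif4ebp1, Eif4ebp2, Eif4ebp3, Eif4enif1, Eif4g1 and Eif4g3. Eif4g2 was not searched, because its coding sequence does not begin with ATG. The matches also take in Eif2b1, Eif2b2, Eif2b3, Eif2s2, Eif3c, Eif3e, Eif3l and Eif5, and a match to so short a motif is not a measured binding site.

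Late initiation factors were moderate. Eif5, which activates GTP hydrolysis by eIF2, had levels of 61.1 and 72.5. Eif5b, the GTPase that joins the large subunit, had 15.4 and 17.4. Eif5a, which carries the hypusine residue and helps elongation and termination, was much higher at 288 and 371. Its paralog Eif5a2 had 75 and 71 counts and levels of 0.412 and 0.430, so Eif5a held 99.9% of the pair in both libraries.

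Of the genes that match the naming rule without being translation factors in the strict sense, Eef1e1, a scaffold protein of the multi-synthetase complex, had levels of 13.26 and 10.99, and Eif1ad had 9.22 and 10.4.

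**Figure D3:**
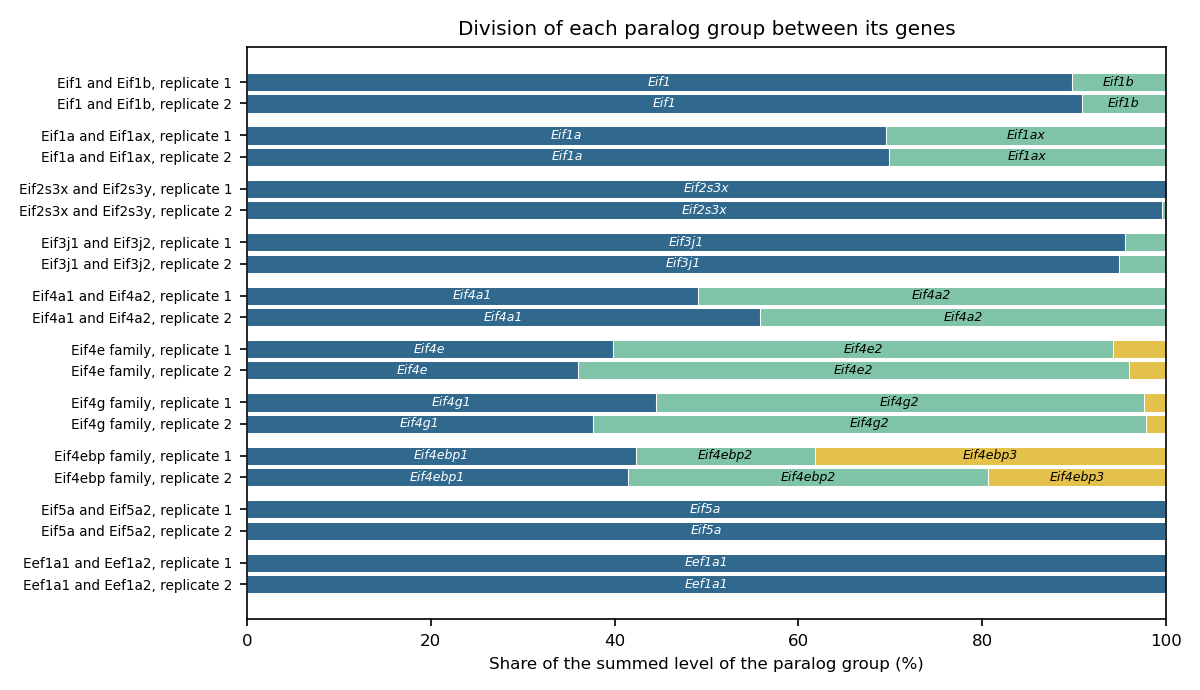
Share of each gene in the summed level of its paralog group, in percent, with a bar for each library. Pairs such as Eef1a1 and Eef1a2, Eif5a and Eif5a2 and Eif2s3x and Eif2s3y rest on 1 gene, whereas Eif4a1 and Eif4a2 are near equal and Eif4ebp2 and Eif4ebp3 change places between libraries.

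The libraries were compared by the log2 ratio of replicate 2 over replicate 1, computed from CPM scaled by TMM, a normalization to the bulk of genes, plus 0.5. A mean level of 1 or more and a mean count of 10 or more were required. All 57 genes with a level of 1 in both libraries passed. Ratios past 1.5-fold were found for 3 of 57 genes, against 10.1% of all 11369 genes tested. The count was 4 with rescaled TPM, 6 with spike-in scaling and 20 with deposited TPM. These scales also shift the median of all genes, by 0.12, 0.30 and 0.38 on the log2 scale. The 10.1% of all genes holds for TMM scaling only, so these counts cannot be set against it. Of the 3 with TMM scaling, 1 was higher in replicate 2, against 5.52% of all genes, and 2 were lower, against 4.62%. Past 2-fold there were 0 of 57, against 2.50%. The median log2 ratio of the 57 genes was -0.01, beside -0.01 for all genes, and the median absolute ratio was 0.15, beside 0.22. The median level of the 57 genes was 41.1, above the 11.99 of all genes tested, and ratios of abundant genes carry less counting error.

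The 3 genes past 1.5-fold were Eif4ebp2, Eif4ebp3 and Eif4e3. Eif4ebp2 had 1086 counts in replicate 1 against 1963 in replicate 2, which was 1.92-fold higher after scaling, with a 95% counting interval of 1.78 to 2.07. Eif4ebp3 had 825 and 391 counts, and replicate 2 was at 0.504 of replicate 1, with an interval of 0.446 to 0.569. Eif4e3 had 331 and 187 counts, at 0.601 of replicate 1, with an interval of 0.499 to 0.721. These intervals cover counting error in 2 libraries and say nothing about conditions. The sign of all 3 was the same under TMM, DESeq2 size factors, spike-in total, deposited TPM and rescaled TPM, but not the call. Eif4e3 was no longer past 1.5-fold with spike-in scaling, rescaled TPM or deposited TPM, at log2 ratios of -0.36, -0.51 and -0.08. Eif4ebp3 was no longer past it with deposited TPM, at -0.41, and Eif4ebp2 was past it under each.

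The marker counts of muscle, pancreas, adrenal cortex and B or plasma cells given above also differed between the libraries, and their part in these 3 ratios was not tested. Eif4e3 overlaps Gm20696, with 307 and 262 counts, on the same strand, and Eif4ebp3 overlaps AC115631.1, which has no row in the files. Whether reads were counted by strand is not given in the sources used here.

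Of the next 7 genes by size, 5 were lower in replicate 2. Eif4a2 had 20590 counts in replicate 1 and 13584 in replicate 2, and its scaled level in replicate 2 was 0.702 of that in replicate 1, with an interval of 0.686 to 0.717. Eif2s2, Eif3e, Eif4e and Eef1e1 were at 0.741, 0.758, 0.772 and 0.765. All 5 signs turn positive with deposited TPM, where log2 ratios were 0.13 for Eif4a2, 0.10 for Eif2s2, 0.14 for Eif3e, 0.16 for Eif4e and 0.12 for Eef1e1 and the median of all tested genes was 0.38. Relative to that median they were still low. The higher genes, Eif3b and Eif3f, were at 1.37 and 1.30.

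By complex, the differences between libraries had no common direction in most groups. Of the 13 eIF3 genes tested, 7 were higher in replicate 2 and 6 lower, with log2 ratios from -0.40 to 0.45. All 3 eIF4G scaffold genes were higher, with log2 ratios from 0.07 to 0.32, and all 3 tested eIF4E genes were lower, from -0.64 to -0.10, the last of which turns positive with spike-in scaling. The 10 Eef genes tested split into 5 and 5, from -0.35 to 0.23. They include 4 enzymes that act on elongation factors and Eef1e1. Spike-in scaling would add 0.30 to the log2 ratio of all tested genes at the median, so these directions hold relative to the other genes of the library only.

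**Figure D4:**
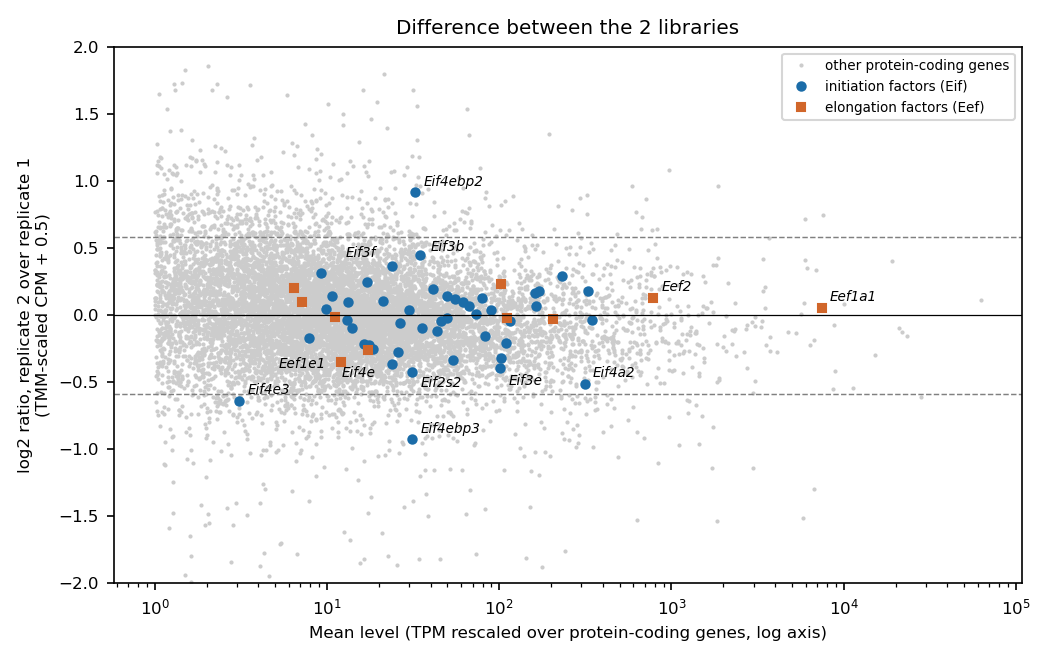
Log2 ratio of replicate 2 over replicate 1 against mean level on a log axis, for all 11369 genes tested (grey) and the 57 translation factor genes (coloured), with lines at 1.5-fold. Eif4ebp2 lies above the upper line and Eif4ebp3 and Eif4e3 below the lower one, and 72 genes outside the axis are not drawn.

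A gene's level sums over all its annotated transcripts, and several factor genes drew much of it from transcripts that encode no full protein. Over the 50 genes at a level of 10 or more in both libraries, transcripts annotated as protein-coding held 71.9% of TPM in replicate 1 and 75.3% in replicate 2. Among all 5888 protein-coding genes at that level the mean was 91.5%. Retained-intron transcripts held a mean of 8.88% ± 1.36 and nonsense-mediated decay transcripts, which carry an early stop codon, 1.95% ± 0.569. Without Eef1a1 the coding mean was 85.4%. These are shares of summed TPM, and the median coding share over the 50 genes was 99.8%. By transcript counts the coding mean of the 50 genes was 90.4%, since short transcripts weigh more in TPM. No share by counts was taken for all protein-coding genes.

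Eef1a1 shows that effect of length. The 1794-nucleotide coding transcript Eef1a1-201 took 275798 and 277443 counts and 63.5% and 68.5% of the gene's TPM. Eef1a1-204, a processed transcript of 505 nucleotides, took 19248 and 16869 counts but 23.8% and 21.8% of TPM. With coding transcripts alone, rescaled the same way, Eef1a1 had a level of 4987 and 5845, still the highest of the 63 genes. This second scale was chosen after the data were seen.

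In 6 of the 50 genes coding transcripts held under 50% of TPM in both libraries. The same count was not taken over all protein-coding genes. Eif2a was the most extreme, with 2.34% and 7.94% in coding transcripts and 56.1% and 49.8% in retained-intron ones, and its coding-only level was 1.53 and 4.25. It overlaps Serp1, on the opposite strand, which had 26721 and 21938 counts. In Eef1b2 the nonsense-mediated decay transcript Eef1b2-205 held 61.9% and 46.1%, and coding transcripts gave a level of 52.5 and 80.0 in place of 208 and 204. On that scale Eef1b2 was the lowest of the eEF1B trio. By counts Eef1b2-205 took 2376 in replicate 1 and 1515 in replicate 2. The longer coding transcript Eef1b2-204 took 1821 and 1973, so the order of these transcripts in replicate 2 depends on the length correction.

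The other 4 genes were Eif5b, Eif4enif1, Eef1akmt2 and Eif4g1. Eif4g1 had 47.0% and 46.5% in coding transcripts, 32.6% and 31.5% in retained-intron ones and 20.4% and 22.0% in decay ones. Eif5b had 49.2% and 58.7% in processed transcripts. Its leading transcript by TPM, a processed one of 578 nucleotides, took only 107 counts in replicate 1 and 126 in replicate 2. A coding transcript of 7797 nucleotides took 1575 and 1163. In Eif4enif1 the leading transcript by TPM, a retained-intron one of 437 nucleotides, took 46.1 and 41.8 counts. Its leading coding transcript by counts took 292 and 263. The low coding shares of Eif5b and Eif4enif1 thus depend on the length correction. The most abundant transcript was the same in both libraries for 49 of the 50 genes, of which 19 have only 1 transcript in the tables. The exception was Eef1akmt2, where Eef1akmt2-205 led in replicate 1 and Eef1akmt2-201 in replicate 2. By transcript counts, in place of TPM, the leading transcript was the same for 47 of the 50. Neither number was taken over all protein-coding genes.

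Eif4a2, whose gene is known for an exon that leads to decay, had 57.4% and 62.2% in coding transcripts. Decay transcripts held 20.5% of its TPM in replicate 1 and 11.3% in replicate 2. Counted from coding transcripts only, Eif4a2 had a level of 216 and 192, and Eif4a1 a mean of 63.4% of the pair. Eif4a1 was then the higher gene of the pair in both libraries, which was not so for the sum of all transcripts.

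**Figure D5:**
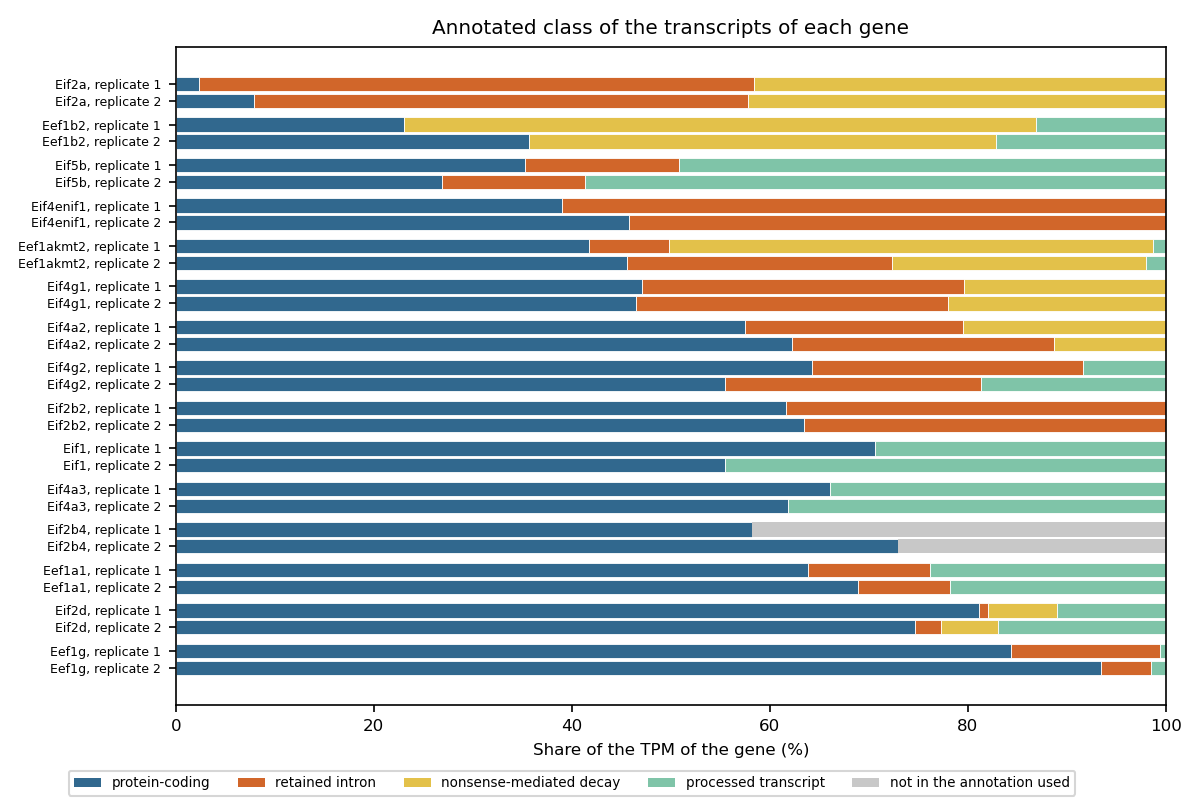
Share of each gene's TPM in transcripts of each annotated class, in percent, with a bar for each library. Shown are the 15 factor genes at a level of 10 or more in both libraries whose mean coding share was under 90%. Eif2a has the smallest coding share, and Eef1b2 the largest share in nonsense-mediated decay transcripts.

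Several factor genes carry small nucleolar RNAs in their introns, as ribosomal protein genes often do. Of the 63 genes, 8 hold 17 annotated snoRNAs, or 12.7% of genes against 1.94% of all genes tested. Eif4a2 holds 5, Eif4a1 and Eef1b2 hold 3 each and Eif3a holds 2. Eef2, Eif4g1, Eif4g2 and Eif5 hold 1 each. The libraries select RNA above 200 nucleotides, and levels of these snoRNAs were not used here. In all, 17 of the 63 genes overlap another protein-coding gene, 4 on the same strand and 13 on the opposite one.

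Genes that act on the factors were also present. Of 13 genes for eIF2 kinases and the integrated stress response, 12 were at 1 or more in both libraries, and 1 of 13 was past 1.5-fold higher and 2 past it lower in replicate 2, against 5.52% and 4.62% of all genes tested. Atf4, the transcription factor that phosphorylated eIF2 favours, had levels of 43.1 and 48.5. Ppp1r15b, the constitutive eIF2 phosphatase subunit, had 38.8 and 44.7. Asns, asparagine synthetase and an Atf4 target, had 61 and 256 counts, a log2 ratio of 1.63.

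All 11 genes of the mTORC1 list were present, 2 of them past 1.5-fold and higher in replicate 2, against 5.52% of all genes tested, and their log2 ratios had a median of 0.27. Larp1, which binds the pyrimidine tract, had levels of 17.7 and 28.9. Deptor, an inhibitor of mTOR, was the highest of the list at 37.7 and 51.5, followed by Akt1s1, another mTORC1 inhibitor, at 23.5 and 32.1. The 9 poly(A)-binding and cap partner genes had a median log2 ratio of -0.05 with 0 past 1.5-fold, against 10.1% of all genes tested. They were led by the helicase gene Ddx3x at 131 and 118 and Pabpc1 at 76.4 and 117. Pabpc4, a second cytoplasmic poly(A)-binding protein, had the largest ratio of that list, with levels of 22.4 and 38.4 and a log2 ratio of 0.57.

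The enzymes of hypusine, the modification of eIF5A, and of diphthamide, that of eEF2, were all 9 present, with Dohh at 37.7 and 49.9 and Dph3 at 13.7 and 23.2. Of 9 genes for reinitiation, termination and recycling, 8 were present, with Hbs1l at 59.1 and 64.7 and Abce1 at 58.5 and 58.0. Mcts2 had the largest ratio there, -0.32 on the log2 scale, with levels of 7.90 and 6.57. All 9 mitochondrial translation factors were present, led by Tufm, the mitochondrial counterpart of eEF1A, at 79.8 and 86.0, and Gfm1, that of eEF2, at 40.8 and 56.3. Mtrf1, a release factor, had levels of 9.22 and 7.31 and a log2 ratio of -0.43. Eefsec, which delivers selenocysteine, had 13.8 and 19.6, and Secisbp2, which binds the selenocysteine insertion element, had 8.07 and 9.34. None of the tested genes in these short lists was past 1.5-fold, against 10.1% of all genes tested.

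Cytosolic ribosomal protein genes were taken by symbol, here and in the promoter search. The list thus also holds related genes such as Rps19bp1 and Rpl7l1. Its genes, 85 of 88 present, held 3.80% and 4.26% of protein-coding TPM, against 1.15% and 1.26% for the translation factors. Their median log2 ratio was 0.08, with 51 higher and 34 lower in replicate 2. Of all 11369 genes tested, 5612 were higher and 5757 lower. Of the ribosomal protein genes, 1 was past 1.5-fold, against 10.1% of all genes tested. It was Rps27rt, with 245 and 119 counts. Rps18, at 1703 and 1403, and Rplp1, at 1456 and 2004, were the highest, so Eef1a1 stood above every ribosomal protein gene by this measure.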

How the data were processed

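RNA above 200 nucleotides was sequenced from liver in 2 libraries of 1 group. Per the notes deposited with each library, values were computed against mm10 with annotation M4. The sources used here do not give the aligner, the quantifier or the use of strand. The authors deposited expected counts, TPM and FPKM per gene and transcript, a posterior SD of the count that has the unit of a coverage signal in fragments, and the percent of a gene's TPM in each transcript.

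Gene types, strand and transcript classes came from a later annotation of the same build, which matched 42462 of 43346 endogenous gene rows. Deposited TPM was rescaled to sum to 1000000 over protein-coding genes. Spike-in rows, at 1.20% and 1.06% of counts, were left out. Expected counts were scaled with TMM factors of 0.950 and 1.05 (edgeR 4.0.16, R 4.3.3), with DESeq2 1.42.0 size factors as an alternative, and log2 ratios were taken with 0.5 CPM added, for genes at a mean level of 1 and a mean count of 10. The ratio step was tested on simulated data. Intervals are 95% Clopper-Pearson intervals from scipy 1.17.1, on Python 3.11.15, and cover counting error only. With 1 group of 2 libraries no test between conditions was run, and "past" means past a fold of 1.5 or 2. Values are named for the highest and lowest gene of each factor group, all paralogs, the 10 largest ratios and genes with a posterior SD of 10% of the count or more, and, of each pathway list, the highest pair and the largest ratio. Genes and transcripts singled out beyond that rule were chosen after their values were seen. The members and lists were chosen with earlier results of these data known. Promoter windows are from RefSeq (GRCm38.p6), and coding sequences and protein identities were computed from the later annotation's transcripts.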

Additional observations from a re-analysis of the deposited data

How the results depend on the processing

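With 2 libraries, leaving one out moves a mean by less than the SD by construction, so it says nothing of stability. The 63 genes held 0.174% of TPM over all endogenous genes, and 0.977% with coding transcripts only. Group shares with coding transcripts only were 55.4% for eEF1A, 2.93% for eEF1B, 8.74% for eEF2, 1.62% for eIF2, 0.213% for eIF2A and eIF2D, 0.728% for eIF2B, 9.96% for eIF3, 2.54% for eIF4B and eIF4H, 0.706% for eIF4E, 1.29% for the binding proteins, 2.44% for eIF4G, 1.26% for eIF5, eIF5B and eIF6, 3.68% for eIF5A, 0.314% for the enzymes and 0.248% for the other genes. Paralog shares on that scale were 85.4% for Eif1, 70.01% for Eif1a, 63.4% for Eif4a1, 35.1% for Eif4g1, 61.9% for Eif4g2 and 2.97% for Eif4g3, and the eIF2B subunits spanned 3.84-fold.

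Paralog shares by counts were 55.7% for Eif1a, 97.9% for Eif3j1, 51.2% for Eif4e, 43.0% for Eif4e2, 51.7% for Eif4g1, 45.3% for Eif4g2, 3.04% for Eif4g3, 37.4% for Eif4ebp1, 44.4% for Eif4ebp2 and 99.3% for Eif5a. With the posterior mean TPM, Eif1a held 69.2%, Eif4e1b 0.830% and Eif4g3 2.47%.

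The number of genes past 1.5-fold was 6 with spike-in scaling and 20 with deposited TPM, against 3 with TMM scaling, and past 2-fold, against 0, it was 1 with spike-in scaling, 2 with deposited TPM and 1 with rescaled TPM. The median log2 ratio was 0.30, 0.49 and 0.13 under those settings, against -0.01. The shares of all genes given above hold for TMM scaling only, so the other counts cannot be set against them. With spike-in scaling, list medians were 0.41 for the stress response, 0.59 for mTORC1, 0.26 for the cap partners, 0.27 for termination, 0.21 for hypusine and diphthamide, 0.28 for mitochondrial factors, 0.57 for selenocysteine and 0.40 for ribosomal proteins. By transcript counts, coding transcripts held 90.4% and retained-intron ones 4.94%. The cause of these shifts was not tested.

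No paired analysis was possible because the study has 1 group. With 1 library in each ratio, leaving a library out gives no ratio. Depth limits most the 6 genes below a level of 1, such as Eef1a2.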
